A study of Mus musculus with 12 samples.

Results

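The comparison covers the epithelium of the wild-type mouse conjunctival fornix at postnatal day 9 (PN9) and postnatal day 14 (PN14), ages that lie on either side of eyelid opening. Samples were chosen by their labels and not by any measured value: 3 wild-type samples at each age, or 6 of the 12 in the series. All 6 came from mice of mixed background, and the labels give no treatment, no allele and no sex for them. The other 6 samples were 3 wild-type ones at postnatal day 20 (PN20) and 3 PN14 ones labelled Klf4CN, which carry a conditional deletion of Klf4. These 6 helped to estimate the spread between arrays, and PN20 is used below to set a second age step beside the first. Forniceal epithelium was cut out by laser capture, and its RNA was amplified in 2 cycles before hybridisation to 1 Affymetrix array per sample. The labels call the samples independent without tying them to animals, so every p-value speaks of the spread among the arrays given, and part of that spread may be technical.

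The fornix is the fold in which the inner lining of the lid turns over onto the eyeball. Its stratified epithelium holds goblet cells, which release gel-forming mucins into the tear film, and surface cells whose membrane-bound mucins form a glycocalyx that holds water and keeps out microbes. The eyelids of mouse pups are fused at birth and separate about the time of the older age studied here, when the tissue first meets air, light and microbes. The comparison asks which genes of this epithelium change in level across that interval.

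Signals below are array intensities after each array was scaled to a common median of the measured probe sets. Values are listed in the order of replicates 1, 2 and 3. A fold and its log2 change ± standard error refer to log2(signal + 16), which understates the change of dim genes, and each adjusted p comes from limma with Benjamini-Hochberg adjustment over the 14163 genes tested. A gene rose or fell when its adjusted p was under 0.05. Present is the manufacturer's call for a detected probe set, and where a gene had no such call at one age its fold is a lower bound and is written with "at least". Unless said otherwise, the 3 PN14 signals of a gene given with its signals that rose or fell lay wholly above or below its 3 PN9 signals, and the call was kept when each of these 6 arrays was left out in turn. Counts with 1 array left out at a time are given in the order of PN9 replicates 1, 2 and 3 and PN14 replicates 1, 2 and 3.

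The 6 arrays carried epithelial transcripts and differed in the 3' to 5' signal ratio of beta-actin. All 12 epithelial markers, among them Krt5, Krt4, Cdh1, Pax6 and Trp63, were Present on all 6 arrays. Of 5 goblet cell markers tested, 2 were Present on all 6. Replicate arrays correlated at Pearson's r of 0.941 to 0.964 at PN9 and 0.968 to 0.975 at PN14 over all probe sets of the array. The beta-actin control's ratio of 3' to 5' signal, which is higher in shortened RNA, was 46.8, 33.8 and 24.2 at PN9 and 11.1, 24.9 and 21.1 at PN14. The groups overlapped, and the means of 34.9 ± 11.4 and 19 ± 7.14 (SD, n = 3) gave an exact two-sided permutation p of 0.2, where 0.1 is the smallest that 3 arrays against 3 allow. The same ratio for Gapdh was 16.5 ± 2.41 and 16.2 ± 5.67 (exact permutation p = 1). For spiked control transcripts, which are not sample RNA, mean ratios at PN9 and PN14 were 12.4 and 14.3 (dap), 20.1 and 20.7 (thr), 17.8 and 18.1 (lys), and 6.52 and 6.56 (phe). The part of amplification in these ratios was not tested. The deposited 3' signal of the phe spike was 3138, 11011 and 945 at PN9 and 1422, 4169 and 2976 at PN14. Xist, which marks cells with 2 X chromosomes, was high on PN9 replicate 2 and on PN14 replicates 1 and 2, and the Y-linked genes were high on the other 3 arrays, so both ages held both patterns.

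Between PN9 and PN14 the expression of 985 genes changed, which is 6.95% of those tested: 611 rose (4.31%) and 374 fell (2.64%). The median log2 change over all 14163 genes was 0.01. Rises were also the larger changes, with 86 genes more than 4-fold higher and 26 more than 8-fold higher, against 5 more than 4-fold lower and 0 more than 8-fold lower. Among called genes, 979 of 985 had groups that were fully apart, as had 29.8% of all genes tested. The count of called genes moved with the arrays used: with 1 array left out at a time it was 301, 465, 1272, 291, 386 and 691, and 209 genes (145 up, 64 down) were called each time. With actin ratio as covariate 130 genes passed, 120 of them among the 985, and all 985 kept their sign. Of the 89 called genes given with values or flagged in this text, 53 did not pass with that covariate. Of the calls 62.0% were rises, but this share was 48.0% of 1424 calls with values as deposited, 74.9% of 565 when arrays were scaled to the median of all probe sets and 52.6% of 1455 after quantile normalization. By the authors' own rule in their deposited table, 1416 of 45037 probe sets passed (3.14%), of which 810 were higher at PN14. Among the probe sets tested here 764 passed that rule, and the 538 passed by both were 70.4% of theirs and 54.6% of the calls made here.

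**Figure D1:**
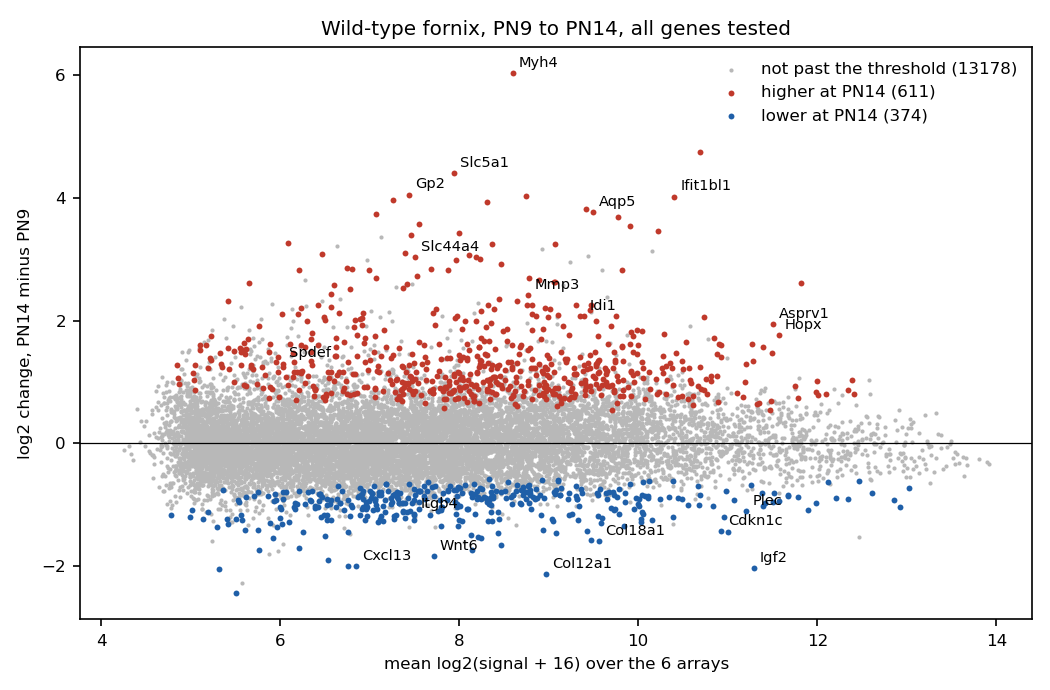
Log2 change from PN9 to PN14 (vertical axis) against mean log2(signal + 16) over the 6 arrays (horizontal axis) for the 14163 genes tested. Red points are the 611 genes that rose, blue points the 374 that fell and grey points the rest. The rises reach further from 0 than the falls.

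Several genes of mucus secretion rose. Of 12 measured genes for secreted mucins and the proteins that make and release them, 5 rose and 0 fell, with a median log2 change of 0.71. These were Muc5ac, Muc5b, Agr2, Tspan8 and Spdef. With 1 array left out at a time 4 or 5 rose, and 3 did with actin ratio as covariate. Spdef and Muc5b, given next, did not pass with that covariate (adjusted p 0.0575 and 0.0724). Spdef, the transcription factor that drives goblet cell differentiation, read 29.0, 21.0 and 27.3 at PN9 and 91.8, 106 and 65.8 at PN14. It rose 2.46-fold (log2 change 1.30 ± 0.22, adjusted p = 0.00657), and the lowest PN14 array stood above the highest PN9 array. Muc5b, a gel-forming mucin, read 93.6, 51.7 and 42.8 and then 140.3, 144 and 166, and was Present on no PN9 array. It was at least 2.19-fold higher (log2 change 1.13 ± 0.28, adjusted p = 0.0301), a call that held only without PN9 replicate 1 among the 6 omissions, where the adjusted p otherwise lay between 0.067 and 0.0885. In a bulk sample such as this, fewer cells of a type and less RNA per cell cannot be told apart, so these values do not separate more goblet cells from more mucin per cell.

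The enzymes that build mucin sugars moved in part with the mucins. Of 28 measured glycosylation genes 6 rose and 1 fell, with a median log2 change of 0.39. Left-out arrays gave 3, 4, 4, 3, 3 and 3 rises, with 1 fall each time, and actin ratio as covariate gave 2 and 1. Galnt7, given below, did not pass with that covariate (adjusted p = 0.0524). Polypeptide N-acetylgalactosaminyltransferases attach the first sugar to the mucin backbone. One of them, Galnt7, read 163, 186 and 145 at PN9 and 1029.8, 1101 and 604 at PN14, a rise of 4.99-fold (log2 change 2.32 ± 0.38, adjusted p = 0.00497). Another, Galnt12, read 88.9, 93.2 and 37.9 and then 194.5, 233 and 212, and rose 2.68-fold (log2 change 1.42 ± 0.26, adjusted p = 0.00805). All PN14 arrays lay above all PN9 arrays for both. Galnt2, a member of the same family named here after its values were seen because it was the only one to fall, read 376, 338 and 418 and then 170.4, 98.2 and 197. Its level fell 2.37-fold (log2 change -1.24 ± 0.23, adjusted p = 0.00857).

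Some membrane mucins of the surface cells rose. Of 13 measured genes of the glycocalyx 4 rose (Muc1, Muc4, Muc16 and Muc20) and 0 fell, and 12 of 13 had a positive change, with a median log2 change of 0.80. Left-out arrays gave 2, 2, 3, 2, 2 and 2 rises. With actin ratio as covariate 0 passed by limma, with a median log2 change of 0.75. Muc1, a transmembrane mucin found on most mucosal surfaces, read 461, 482 and 424 at PN9 and 965, 1496 and 1124 at PN14. It rose 2.53-fold (log2 change 1.34 ± 0.26, adjusted p = 0.0108). Muc20 read 244, 191 and 228 and then 697, 1122 and 749, or 3.61-fold more (log2 change 1.85 ± 0.52, adjusted p = 0.0483), but this call was lost whichever array was left out (adjusted p 0.0739 to 0.149).

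**Figure D2:**
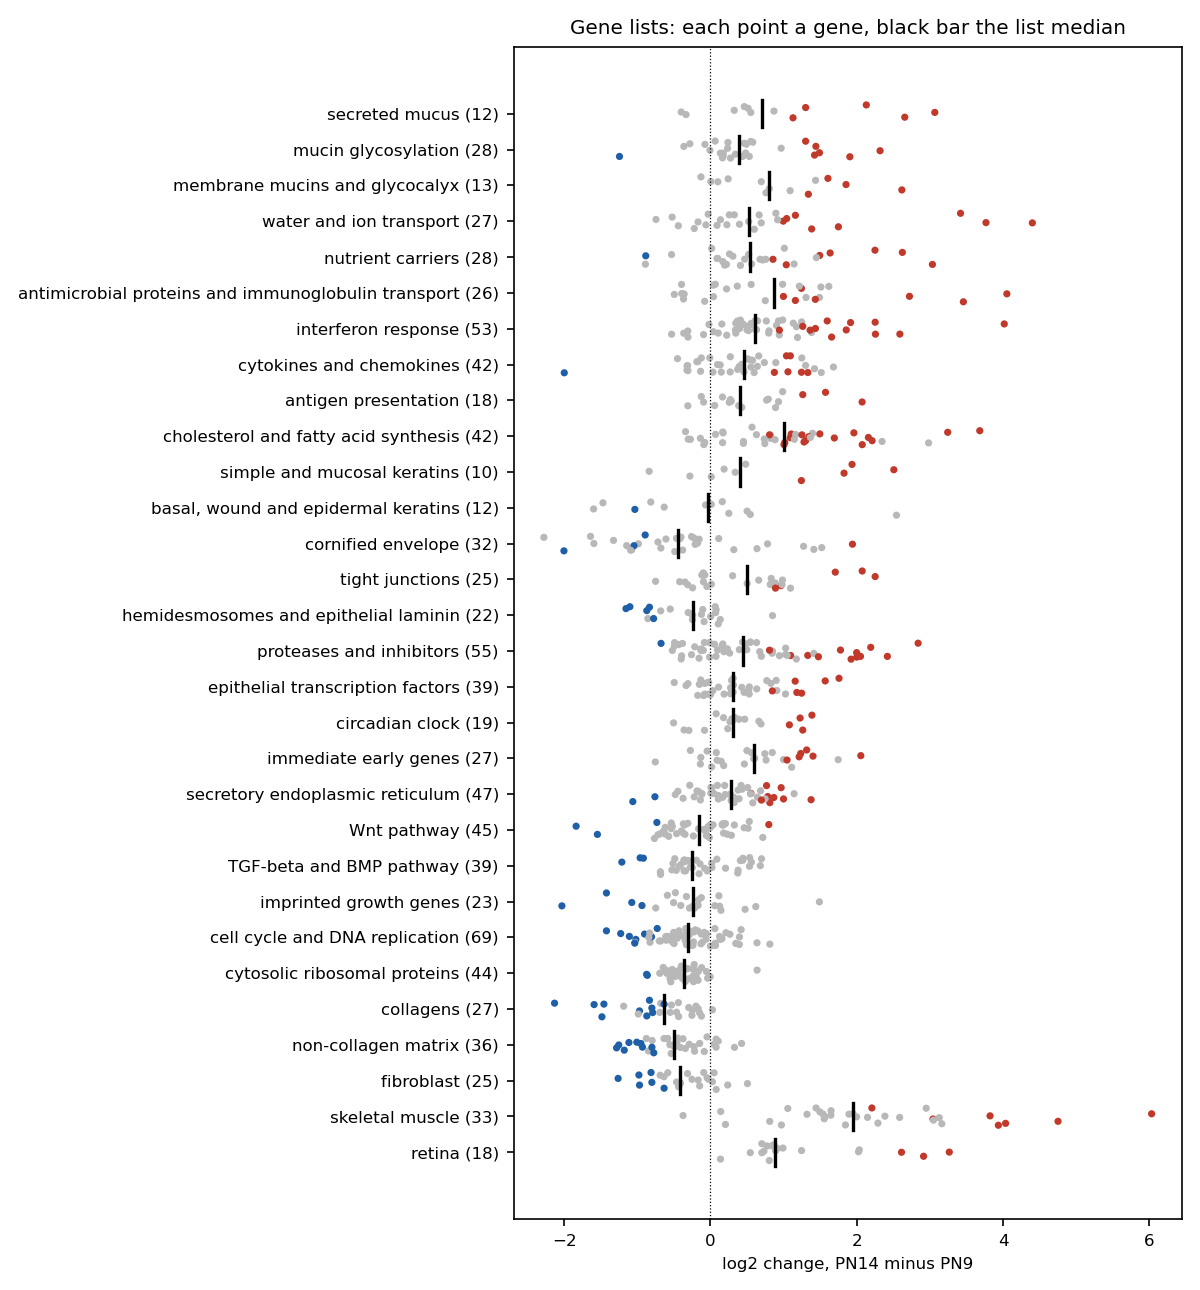
Log2 change from PN9 to PN14 (horizontal axis) of every measured gene in 30 lists, with the number measured in parentheses. Red points rose, blue points fell, grey points did not pass, and black bars are list medians, which run from -0.63 for collagens to 1.95 for skeletal muscle.

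Channels and carriers that move water, ions and nutrients across the surface were among the largest rises. Of 27 measured water and ion transport genes 8 rose and 0 fell (median log2 change 0.52), and left-out arrays gave 5, 5, 6, 4, 6 and 6 and actin ratio as covariate 3. Slc5a1, the sodium and glucose cotransporter of absorptive epithelia, read 40.4, 43.2 and 29.9 at PN9 and 704, 1952 and 1003 at PN14. Its 21.1-fold rise (log2 change 4.40 ± 0.40, adjusted p = 0.000171) was the third largest of all. Kcne3, a potassium channel subunit of secretory epithelia, was Present on no PN9 array, with 1.90, 11.8 and 1.10, and read 78.9, 40 and 44.7 at PN14. It was at least 2.96-fold higher (log2 change 1.75 ± 0.31, adjusted p = 0.00796), and the groups were far apart. Kcne3 did not pass with actin ratio as covariate (adjusted p = 0.0708). Car12, a carbonic anhydrase that makes bicarbonate at the cell surface, read 290.1, 339 and 278 and then 1116, 775 and 617, a 2.61-fold rise (log2 change 1.38 ± 0.28, adjusted p = 0.0129). It missed the threshold without PN9 replicate 1 or PN14 replicate 1 (adjusted p 0.0545 and 0.0639). Clca4c-ps, a pseudogene of the calcium-activated chloride channel regulators that shares sequence with its family, read 22.1, 26.0 and 15.6 and then 334, 733 and 438. The signal was 13.3-fold higher, a rise (log2 change 3.73 ± 0.47, adjusted p = 0.00101), and cross-reaction with expressed family members was not tested.

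Of 28 measured nutrient carriers 7 rose and 1 fell, with a median log2 change of 0.54. Left-out arrays gave 3, 3, 5, 3, 3 and 4 rises, and actin ratio as covariate 2. Slc44a4, a carrier of choline and thiamine derivatives, read 46.1, 43.1 and 53.7 at PN9 and 480.2, 660.5 and 404 at PN14. It rose 8.19-fold (log2 change 3.03 ± 0.39, adjusted p = 0.00107). Slc28a3, which concentrates nucleosides, read 288, 216 and 125 and then 1212, 1843 and 999.7, a 6.16-fold rise (log2 change 2.62 ± 0.40, adjusted p = 0.00314). Slc6a14, a carrier of neutral and cationic amino acids, read 312, 266 and 249 and then 1378, 1844 and 999. It rose 4.75-fold (log2 change 2.25 ± 0.47, adjusted p = 0.0146), and missed the threshold without PN14 replicate 1 or PN14 replicate 2 (adjusted p 0.0538 and 0.0617). On all 3 carriers PN14 replicate 2 was the highest array. Slc1a4, a neutral amino acid exchanger, was the only carrier to fall and is named for that after its values were seen. It read 601, 451 and 307 and then 239, 239.8 and 211 (1.85-fold lower, log2 change -0.88 ± 0.23, adjusted p = 0.0356), and the call held only without PN9 replicate 3 among the 6 omissions (adjusted p 0.0838 to 0.138 in the others). Of its 3 probe sets 1 had the opposite sign without passing.

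A minority of the interferon-induced genes measured rose. Interferons are signals released on infection that switch on antiviral genes through a sequence in their promoters, the interferon-stimulated response element. Of 53 measured genes of this response 12 rose and 0 fell, and 47 of 53 had a positive change, with a median log2 change of 0.61. Left-out arrays gave 5, 8, 8, 4, 6 and 10 rises, and, with actin ratio as covariate, 3 passed. The core of that element was searched for on both strands, as GAAA followed by any 2 bases and GAAA again, in the 300 bases around each transcription start, 250 before and 50 after, in RefSeq promoters of mouse build GRCm38.p6. It was found in 3.44% of 32851 promoters, in 3.61% of the 11339 tested genes with a promoter and in 20 of the 41 interferon genes with a promoter, a list chosen for this response. Among these 41 it lay in 5 of 10 that rose and in 15 of 31 that did not pass, so its presence did not separate them. A match is a description of the letters there, not of a site in use. The windows below show the match nearest the start of each of the 5 genes that rose, so that the motif can be seen beside the values that follow. They read 5' to 3' along the strand of the gene with the motif in capitals, and where TTTC opens the capitals the match lies on the opposite strand.
Ifit1 (chr19:34640779-34640838, plus strand): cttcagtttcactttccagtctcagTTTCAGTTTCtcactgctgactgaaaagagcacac
Ifit1bl1 (chr19:34599416-34599475, minus strand): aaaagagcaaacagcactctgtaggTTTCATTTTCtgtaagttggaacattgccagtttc
Ifih1 (chr2:62646206-62646248, minus strand): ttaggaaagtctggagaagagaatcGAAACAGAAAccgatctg
Gbp2 (chr3:142620579-142620638, plus strand): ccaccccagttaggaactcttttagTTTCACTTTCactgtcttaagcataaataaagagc
Ddx60 (chr8:61928043-61928102, plus strand): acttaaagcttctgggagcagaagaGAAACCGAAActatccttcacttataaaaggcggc

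Of the genes behind these promoters, Ifit1bl1 changed most. Ifit1bl1, a member of the family that binds foreign RNA, read 382, 274 and 311 at PN9 and 4853, 5118 and 6386 at PN14. Its 16.2-fold rise (log2 change 4.02 ± 0.29) had an adjusted p of 2.25e-05. Ifit1, its relative in the same gene cluster, read 73.5, 55.8 and 36.8 and then 487, 398 and 338, a 6.02-fold rise (log2 change 2.59 ± 0.49, adjusted p = 0.00953). Both were higher on every PN14 array than on any PN9 array, and since Ifit family members are similar in sequence, their probe sets may share signal. Ddx60, a helicase of the antiviral response, read 26.1, 25.2 and 19.1 and then 209, 189 and 128. It rose 4.78-fold (log2 change 2.26 ± 0.45, adjusted p = 0.0117), and missed the threshold without PN14 replicate 1 (adjusted p = 0.0528). Ifi47, an interferon-gamma-induced GTPase whose promoter is not among those shown, read 185, 214 and 174 and then 852, 1245 and 849, 4.76-fold more (log2 change 2.25 ± 0.47, adjusted p = 0.0145). It was lost without PN9 replicate 1 or PN14 replicate 2 (adjusted p 0.0566 and 0.0589). Gbp2, a GTPase that attacks the membranes around intracellular microbes, read 334, 299.5 and 213 and then 1226, 1319 and 805. Its 3.77-fold rise (log2 change 1.92 ± 0.45, adjusted p = 0.024) held only without PN14 replicate 3 (adjusted p 0.0542 to 0.086 in the others). Ifih1, an RNA sensor named after its values were seen because its promoter is shown, read 568, 524 and 318 and then 1259, 1342 and 1018. Its 2.57-fold rise (log2 change 1.36 ± 0.36, adjusted p = 0.0397) was lost whichever array was left out (adjusted p 0.0597 to 0.12).

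Genes of other arms of mucosal defence were also among the rises. Of 26 measured genes for antimicrobial proteins and antibody transport 7 rose and 0 fell, with a median log2 change of 0.87. Left-out arrays gave 3, 6, 5, 3, 6 and 4, and actin ratio as covariate 2. Gp2, a bacteria-binding protein of cells that sample the lumen, read 39.9, 20.1 and 22.6 at PN9 and 1192, 591 and 469.6 at PN14, a 16.6-fold rise (log2 change 4.05 ± 0.50, adjusted p = 0.000866). Retnla, a secreted resistin-like protein, read 63.2, 102 and 72.0 and then 288, 153 and 298, a 2.70-fold rise (log2 change 1.43 ± 0.33, adjusted p = 0.0205) lost without PN9 replicate 1, and also without PN14 replicate 1 or 3 (adjusted p 0.0863, 0.0868 and 0.0618, in that order). S100a8, a subunit of calprotectin, read 44.3, 65.3 and 47.0 and then 167, 143 and 102. It rose 2.24-fold (log2 change 1.16 ± 0.24, adjusted p = 0.0125), but not past the threshold without PN9 replicate 1 or PN14 replicate 1 (adjusted p 0.0583 and 0.0624). In antigen presentation 3 of 18 measured genes rose and 0 fell (median log2 change 0.41, and 1, 4, 2, 1, 1 and 3 rises with arrays left out), and with actin ratio as covariate 0 passed and the median was 0.28. Ctss, the protease that prepares class II molecules for loading, read 425, 631 and 491 and then 1712, 1616 and 1334, a 2.97-fold rise (log2 change 1.57 ± 0.30, adjusted p = 0.00926). H2-D1, a class I molecule that shares sequence with other class I genes, read 325, 580.2 and 346 and then 1897, 1823 and 1544. It rose 4.21-fold (log2 change 2.07 ± 0.48, adjusted p = 0.0235), with the call lost without PN9 replicate 1, and also without PN14 replicate 1 or 2 (adjusted p 0.0905, 0.0814 and 0.0719, in that order).

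Cytokines that passed mostly rose. Of 42 measured cytokines and chemokines 6 rose and 1 fell (median log2 change 0.45), and arrays left out gave 0, 2, 7, 1, 1 and 8 rises with 1 fall each time. The actin covariate gave 0 rises, 1 fall and a median of 0.21. Il18, an epithelial cytokine, read 57.4, 119.8 and 108.5 at PN9 and 194.5, 290.5 and 239.5 at PN14. It rose 2.37-fold (log2 change 1.24 ± 0.27, adjusted p = 0.016), and was lost without PN9 replicate 1 or PN14 replicate 2 (adjusted p 0.0721 and 0.0678). The gene that fell was Cxcl13, a chemokine that attracts B cells, with 236, 345 and 119 and then 60.8, 32.6 and 35.4, 4.00-fold lower (log2 change -2.0 ± 0.32, adjusted p = 0.00383). Of 26 measured Toll-like and other pattern receptors and their partners 1 rose, Nfkbiz, a co-regulator of nuclear factor kappa B targets, which went from 519, 534 and 467 to 1825, 1885 and 1067. Its 2.99-fold rise (log2 change 1.58 ± 0.43, adjusted p = 0.0438) held only without PN14 replicate 3 (adjusted p 0.0789 to 0.137 without the other arrays). None of 19 measured complement genes and none of 12 tuft cell genes passed by limma, with 3 and 1 at an unadjusted p under 0.05.

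Markers of immune cells were measured beside these genes. Of 7 measured T and NK cell genes and 10 of B and plasma cells, 0 rose and 0 fell by limma (1 of each list at an unadjusted p under 0.05), and 0 and 1 of them were Present on all 6 arrays. Of 20 macrophage and dendritic genes 4 rose, against 4.31% of all genes tested, and arrays left out gave 1, 1, 1, 2, 1 and 2. Of 7 neutrophil genes 2 rose, Itgam and the S100a8 already given among the defence genes, with a median log2 change of 1.16. Arrays left out gave 1, 2, 2, 1, 2 and 2 rises in this list. The actin covariate left 1 rise in each list. The summed signal of the macrophage list was 3722 to 3779.5 at PN9 and 4387 to 5636 at PN14, and that of the neutrophil list was 294.5 to 424 and then 600.1 to 1934. Itgam, an integrin chain of myeloid cells in both lists, read 5.20, 1.5 and 1 at PN9, where it was Present on no array, and 23.1, 39.1 and 25.2 at PN14. It was at least 2.03-fold higher (log2 change 1.27 ± 0.23, adjusted p = 0.00776). The part of immune cells in the defence genes above was not tested.

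Many genes of lipid synthesis rose. Of 42 measured genes of cholesterol and fatty acid synthesis 17 rose and 0 fell, with a median log2 change of 1.01. Left-out arrays gave 8, 12, 13, 13, 15 and 12, and, with actin ratio as covariate, 6 passed. Idi1, an isomerase of the sterol pathway, read 301, 371 and 269.6 at PN9 and 1059, 1177 and 2028 at PN14, a 4.21-fold rise (log2 change 2.07 ± 0.27, adjusted p = 0.00112). Scd1, the desaturase abundant in sebaceous and meibomian glands, read 623, 146 and 126 and then 5724, 386 and 13446. The groups overlapped, and its 12.8-fold rise (log2 change 3.68 ± 1.0, adjusted p = 0.0414) held only without PN14 replicate 2 (adjusted p 0.0575 to 0.143 without the others). Gland markers moved with the lipid genes. The summed signal of 21 measured meibomian, sebaceous and lacrimal markers was 6568, 6470 and 5163 at PN9 and 13802, 13625 and 21153 at PN14. Of these markers 3 rose (Aqp5, Scd3 and Cidea), and Aqp5 is also counted among the water and ion transport genes. The mean log2 value of the gland list was 6.40, 6.19 and 6.16 at PN9 and 7.49, 6.68 and 8.13 at PN14. By that measure PN14 replicate 2 lay closest to the PN9 arrays. Arrays left out gave 2, 1, 2, 1, 8 and 1 rises in that list, and actin ratio as covariate gave 1. PN14 replicate 3 was the highest array, as it was for Idi1 and Scd1. Cidea, a lipid droplet protein, read 31.2, 19.6 and 21.8 and then 237, 62.4 and 659, again highest on PN14 replicate 3. It was at least 5.95-fold higher (log2 change 2.57 ± 0.59, adjusted p = 0.0224), and its call was lost without PN9 replicate 1, PN9 replicate 2, PN14 replicate 1 or PN14 replicate 3 (adjusted p 0.0631, 0.0697, 0.076 and 0.0577, in that order). Without PN14 replicate 3, 12 of the 42 lipid genes rose. The summed gland signal of PN14 replicates 1 and 2 was also above every PN9 array, so this omission does not separate gland from epithelium. The part of gland tissue in the lipid genes was not tested.

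Structural proteins of the epithelium gave both rises and falls, some in small counts, where 4.31% of all genes tested rose and 2.64% fell. Of 10 measured keratins of simple and mucosal epithelia 4 rose (Krt13, Krt23, Krt78 and Krt80) and 0 fell, with 2, 4, 3, 3, 2 and 3 rises when arrays were left out and 2 with actin ratio as covariate. Krt80, a keratin of differentiating cells, read 254.5, 255 and 199.8 at PN9 and 442.5, 936 and 465 at PN14. It rose 2.37-fold (log2 change 1.24 ± 0.28, adjusted p = 0.0193), with the call lost without PN9 replicate 1 or PN14 replicate 2 (adjusted p 0.0585 and 0.0713). Of 12 measured basal, wound and epidermal keratins 0 rose and 1 fell, Krt17 of activated epidermis (357, 429 and 266.5 and then 150.5, 184 and 148). The 2.05-fold fall of Krt17 (log2 change -1.03 ± 0.29, adjusted p = 0.0461) held only without PN9 replicate 3 (adjusted p 0.0894 to 0.138 in the others), an omission under which 5 of the 12 fell. Of 32 measured genes of the cornified envelope, the hardened shell of skin cells, 1 rose and 3 fell. The list's median log2 change was -0.44, and arrays left out gave 1, 1, 7, 0, 0 and 2 falls, and actin ratio as covariate 0. Its mean log2 value was 6.74, 7.76 and 6.55 at PN9 and 6.56, 6.58 and 6.78 at PN14. PN9 replicate 2 was thus the highest array, and without it the median log2 change was -0.18. The other omissions gave medians of -0.35 to -0.55. Lor, the major protein of that envelope, read 145, 543 and 96.4 and then 35.2, 24.8 and 59.3, a 4.01-fold fall (log2 change -2.0 ± 0.44, adjusted p = 0.0181) that was lost without PN14 replicate 1 or PN14 replicate 2 (adjusted p 0.0666 and 0.0736). The member that rose was Asprv1, an aspartic protease that trims filaggrin in skin, from 1400.2, 1858 and 1205 to 4173, 7303 and 5972 (3.84-fold, log2 change 1.94 ± 0.33, adjusted p = 0.00576).

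Among the genes that passed, those of tight junctions rose and those of anchors to the basement membrane fell. Of 25 measured tight junction genes 5 rose (Cldn1, Cldn2, Cldn7, Cldn23 and Tjp1) and 0 fell. The median log2 change was 0.50, and 15 of 25 had a positive change. Arrays left out gave 3, 3, 4, 3, 3 and 4 rises, with 1 fall without PN9 replicate 3. Of 20 measured genes of desmosomes and adherens junctions 2 rose and 0 fell, with a median log2 change of 0.19. In that list arrays left out gave 0, 0, 2, 0, 0 and 2 rises, and actin ratio as covariate 0. Cldn2, a claudin that forms channels for cations and water, read 22.4, 5 and 10 at PN9, where it was Present on no array, and 84.0, 79.3 and 60.5 at PN14, where it was Present on 1. It was at least 3.13-fold higher (log2 change 1.71 ± 0.33, adjusted p = 0.00983), and its other probe set had the opposite sign without passing. Cldn1, a barrier-forming claudin, read 100, 85.8 and 92.5 and then 190.4, 194 and 204. Its 1.95-fold rise (log2 change 0.96 ± 0.23, adjusted p = 0.0275) held only without PN9 replicate 3 (adjusted p 0.0636 to 0.0789 in the others). Of 22 measured genes of hemidesmosomes and epithelial laminins, which fix basal cells to the matrix, 0 rose, 5 fell and 17 did not pass. Their median log2 change was -0.24, and 7 of 22 had a positive change. Arrays left out gave 3, 3, 6, 3, 3 and 3 falls. The falls included the collagens Col4a1 and Col7a1. Itgb4, the integrin chain of the hemidesmosome, read 312, 237.5 and 219.8 and then 103, 79.3 and 140.4, a 2.23-fold fall (log2 change -1.15 ± 0.22, adjusted p = 0.00953). Plec, the linker from that integrin to keratin, read 3782, 3979 and 2696 and then 1286, 1950.5 and 1609, a 2.15-fold fall (log2 change -1.10 ± 0.20, adjusted p = 0.00852), and 1 of its 3 probe sets had the opposite sign without passing. Col4a1, a chain of the basement membrane collagen, read 5297, 4119.9 and 4918 and then 2682, 2515 and 2581, a 1.83-fold fall (log2 change -0.87 ± 0.16, adjusted p = 0.00852), and 1 of its 2 probe sets had the opposite sign without passing. The 3 genes were lower on every PN14 array. With actin ratio as covariate 1 of the tight junction genes rose and 1 of the anchoring genes fell. The anchoring gene was Col4a1 (adjusted p = 0.0486), while Itgb4 and Plec did not pass (adjusted p 0.0645 and 0.0679).

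Proteases and their inhibitors rose more often than not among those that changed. Of 55 measured members 12 rose and 1 fell, with a median log2 change of 0.44, and arrays left out gave 6, 10, 10, 7, 7 and 9 rises and actin ratio as covariate 4. Mmp3, a metalloprotease that degrades matrix, read 172, 189 and 160.4 at PN9 and 1317, 991 and 756 at PN14, a 5.35-fold rise (log2 change 2.42 ± 0.26, adjusted p = 0.000343). Prss22, a secreted tryptase, read 131, 153 and 139.7 and then 658, 1061 and 491, a 4.57-fold rise (log2 change 2.19 ± 0.32, adjusted p = 0.00237). Prss32, another serine protease, read 26.1, 21.7 and 22.2 and then 170.3, 150 and 109.7, a 4.00-fold rise (log2 change 2.0 ± 0.27, adjusted p = 0.00153). Serpinb1a, an inhibitor of neutrophil elastase, read 183, 324 and 213 and then 1009, 1294 and 806 (4.14-fold, log2 change 2.05 ± 0.34, adjusted p = 0.00526). The 3 proteases and the inhibitor were higher on every PN14 array. Cst6, a cysteine protease inhibitor of skin and glands, read 41.3, 52.3 and 2.5 and then 342, 104 and 601, again highest on PN14 replicate 3, and rose 7.15-fold (log2 change 2.84 ± 0.57, adjusted p = 0.0118) with the call lost without PN14 replicate 1 (adjusted p = 0.0527).

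**Figure D3:**
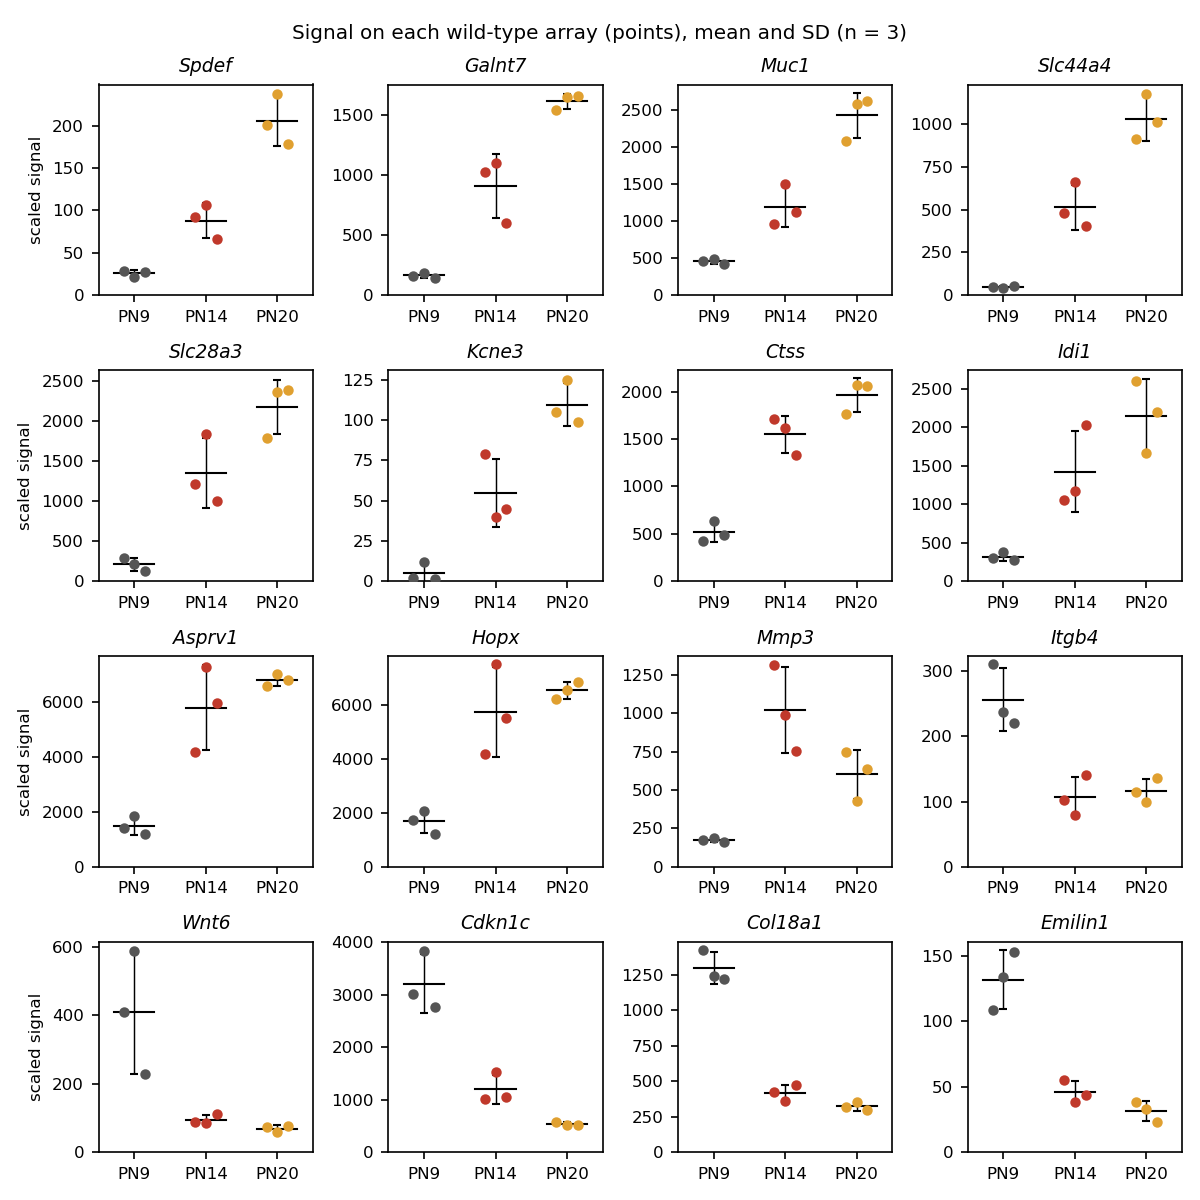
Scaled signal (vertical axis, from 0) of 16 named genes on each wild-type array at PN9, PN14 and PN20, with the mean and SD of 3 arrays. The 3 PN14 points lie above all PN9 points in the panels from Spdef to Mmp3 and below them in the panels from Itgb4 to Emilin1.

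Genes that support secretion and energy use changed at the margins. Of 47 measured genes of the secretory endoplasmic reticulum 9 rose and 2 fell, and arrays left out gave 3, 5, 6, 2, 1 and 9 rises. Under the actin covariate 1 gene of this list rose, as did 1 respiratory chain gene and 1 redox gene. Sec11c, a subunit of the signal peptidase, read 372, 360.1 and 321 at PN9 and 989, 1049.8 and 786 at PN14, a 2.59-fold rise (log2 change 1.38 ± 0.19, adjusted p = 0.00153). Kdelr2, a receptor that returns proteins to the endoplasmic reticulum, read 1432, 1879 and 1059 and then 628, 624 and 772, a 2.09-fold fall (log2 change -1.06 ± 0.21, adjusted p = 0.0103). These 2 genes thus moved in opposite directions. In the whole list 18 genes were higher and 4 lower at PN14 with groups that did not overlap, as was so for 29.8% of all genes tested. Of 70 respiratory chain genes 5 rose and 0 fell, against 4.31% and 2.64% of all genes tested. Their median log2 change of 0.09 was -0.01 with values as deposited. Arrays left out gave 2, 3, 2, 1, 1 and 3 rises. Uqcrfs1, the iron-sulfur subunit of complex III, read 542, 433 and 499 and then 1158, 1079.9 and 1077 (2.22-fold, log2 change 1.15 ± 0.19, adjusted p = 0.00489). Of 40 glutathione and redox genes 5 rose, and arrays left out gave 2, 2, 4, 2, 3 and 3. Mgst2, a microsomal glutathione transferase, read 39.3, 31.9 and 54.1 and then 129, 187 and 152, was Present on no PN9 array and was at least 2.98-fold higher at PN14 (log2 change 1.58 ± 0.21, adjusted p = 0.00153). Of 30 xenobiotic enzymes 3 rose and 0 fell, and 0 passed with actin ratio as covariate. Fmo5, a flavin monooxygenase, read 158, 178 and 131 and then 317, 439 and 532, a 2.56-fold rise (log2 change 1.36 ± 0.27, adjusted p = 0.0117). Tetraspanins and uroplakins, proteins of membrane domains, split with 2 rises and 3 falls among 27, and 2 and 1 with actin ratio as covariate. Tspan1, a tetraspanin of secretory and surface epithelia, read 169, 200 and 75.2 and then 784, 853 and 681, a 5.11-fold rise (log2 change 2.35 ± 0.35, adjusted p = 0.00286). Upk3b, a uroplakin, read 164, 141 and 68.5 and then 24.5, 44.5 and 12.3, with no Present call at PN14. It was at least 3.25-fold lower (log2 change -1.70 ± 0.44, adjusted p = 0.0366), and its call was lost without PN9 replicate 1, PN9 replicate 2, PN14 replicate 1 or PN14 replicate 3 (adjusted p 0.128, 0.108, 0.105 and 0.101, in that order).

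Among regulators, a few transcription factors of epithelial differentiation rose and none fell. Of 39 measured, 6 rose (Hopx, Klf9, Cebpd, Grhl3, Elf3 and Klf4), with a median log2 change of 0.31, and arrays left out gave 2, 2, 3, 3, 2 and 6 and actin ratio as covariate 2. Hopx, a homeodomain protein of differentiating epithelia, read 1744, 2080.0 and 1208 at PN9 and 4175, 7508 and 5522 at PN14, a 3.38-fold rise (log2 change 1.76 ± 0.31, adjusted p = 0.00677). Klf9, a zinc finger factor induced by glucocorticoids, read 2179, 994.5 and 1719 and then 3391, 5199 and 5634, a 2.97-fold rise (log2 change 1.57 ± 0.28, adjusted p = 0.00714). All PN14 arrays exceeded all PN9 arrays for both. Elf3, an epithelial Ets factor (534, 485 and 449 and then 905, 1415 and 1065), rose 2.23-fold (log2 change 1.16 ± 0.30, adjusted p = 0.0375), but the call was lost whichever array was left out (adjusted p 0.0677 to 0.132). Klf4, the factor deleted in the series' mutant, read 2752, 2896 and 3397 and then 4385, 6824 and 5285. It rose 1.80-fold (log2 change 0.85 ± 0.19, adjusted p = 0.0202), with the call lost without PN9 replicate 1, PN9 replicate 2 or PN14 replicate 2 (adjusted p 0.0851, 0.0605 and 0.0896, in that order).

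Genes known to control closure and opening of the eyelid did not move as a group. Of 35 measured, 2 rose (Ereg and Grhl3) and 2 fell (Bmp4 and Erbb2), their median log2 change was 0.08, and the median was -0.01 with values as deposited and -0.06 after quantile normalization. Arrays left out gave 0 of either, except without PN9 replicate 3 (1 rise, 3 falls) and PN14 replicate 3 (1 of each), and actin ratio as covariate gave 0. Ereg, a ligand of the epidermal growth factor receptor, read 179, 137.5 and 220.2 at PN9 and 404, 574.5 and 398 at PN14. Its 2.44-fold rise (log2 change 1.29 ± 0.32, adjusted p = 0.0314) held only without PN9 replicate 3, and without the others the adjusted p was 0.0508 to 0.112. Bmp4, a morphogen, read 227, 269 and 122 and then 83.9, 76.4 and 125. Its groups overlapped, and the 1.95-fold fall (log2 change -0.96 ± 0.27, adjusted p = 0.0468) was lost without PN9 replicate 1, PN9 replicate 2, PN14 replicate 1 or PN14 replicate 2 (adjusted p 0.148, 0.149, 0.141 and 0.151, in that order).

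A few ligands of developmental pathways were among the falls, in lists with small counts. Over all genes tested 4.31% rose and 2.64% fell. Of 45 measured Wnt pathway genes 1 rose and 3 fell, and arrays left out gave 1, 1, 3, 2, 2 and 2 falls. Wnt6, a secreted Wnt ligand, read 411, 587 and 228 at PN9 and 88.2, 87.2 and 112 at PN14, a 3.57-fold fall (log2 change -1.84 ± 0.27, adjusted p = 0.00286). Wnt5b, another ligand, read 699, 604 and 298 and then 122, 196 and 175, a 2.92-fold fall (log2 change -1.55 ± 0.32, adjusted p = 0.0148) that was lost without PN9 replicate 1, PN9 replicate 2 or PN14 replicate 1 (adjusted p 0.0714, 0.0568 and 0.0684, in that order). Both ligands were lower on every PN14 array, with PN9 replicate 3 the lowest of its group. Of 39 genes of the TGF-beta and BMP pathway 0 rose and 3 fell (Bmp4, Ltbp2 and Fstl1), and arrays left out gave 1, 0, 2, 0, 1 and 3. Of 22 Notch pathway genes 1 passed, the ligand Jag2, which read 494, 358 and 553 and then 255, 279 and 256. It fell 1.71-fold (log2 change -0.77 ± 0.19, adjusted p = 0.0309) in a call that held only without PN9 replicate 2 (adjusted p 0.0621 to 0.106 in the others). In retinoid metabolism 2 of 26 genes rose and 1 fell, and arrays left out gave 0, 1, 1, 0, 2 and 1 rises. Under the actin covariate 0 genes of the TGF-beta, Notch and retinoid lists passed, and 1 Wnt pathway gene fell. Aldh1a3, which makes retinoic acid, read 265, 254 and 271 and then 698, 933 and 538. It rose 2.58-fold (log2 change 1.37 ± 0.38, adjusted p = 0.0465), and this call was lost whichever array was left out (adjusted p 0.0544 to 0.154).

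Clock and immediate early genes gave isolated rises. Of 19 clock genes 4 rose and 0 fell, and arrays left out gave 1, 2, 2, 1, 1 and 4, and actin ratio as covariate 0. Rora, a nuclear receptor of the clock, read 134, 106 and 158 at PN9 and 353, 296 and 477 at PN14 (2.62-fold, log2 change 1.39 ± 0.24, adjusted p = 0.00714), and 2 of its 8 probe sets had the opposite sign without passing. The labels give no time of day for the samples. Of 27 immediate early genes 6 rose and 0 fell, and arrays left out gave 2, 3, 4, 2, 4 and 4, and actin ratio as covariate 1. Sgk1, a kinase induced by serum and glucocorticoids that activates sodium transport, read 1325, 1103 and 1126 and then 2834, 3203 and 3433. It rose 2.64-fold (log2 change 1.4 ± 0.22, adjusted p = 0.00324), and its groups were far apart.

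Some growth genes of the fetal and neonatal period fell. Of 23 measured imprinted growth genes 4 fell (Igf2, Cdkn1c, Meg3 and Peg3) and 0 rose, and 3 or 4 fell with each array left out, and 2 with actin ratio as covariate. In the related list of the IGF axis and fetal RNA-binding proteins 1 of 18 measured genes rose and 0 fell, with a median log2 change of -0.07, and 0 rose except without PN9 replicate 3 (1). Cdkn1c, an inhibitor of cyclin-dependent kinases, read 3014, 3837.5 and 2771 at PN9 and 1010.2, 1522 and 1055 at PN14, a 2.68-fold fall (log2 change -1.42 ± 0.22, adjusted p = 0.00319). Peg3, a zinc finger factor, read 3877, 4884 and 3921 and then 2303, 2342.5 and 1943, a 1.91-fold fall (log2 change -0.94 ± 0.19, adjusted p = 0.0125). Both were lower on every PN14 array. Of 69 cell cycle and DNA replication genes 0 rose and 8 fell, with a median log2 change of -0.31, and arrays left out gave 4, 4, 8, 3, 6 and 4 falls and actin ratio as covariate 2. With values as deposited 13 fell. The inhibitor Cdkn1c is counted in this list as well, where it was the largest fall. It passed with actin ratio as covariate (adjusted p = 0.0282), whereas E2f2 and Cdt1, given next, did not (adjusted p 0.0669 and 0.125). E2f2, a factor that switches on replication genes, read 72.7, 91.8 and 94.7 and then 27.2, 41.7 and 33.3, a 2.05-fold fall (log2 change -1.04 ± 0.19, adjusted p = 0.00852). Cdt1, which licenses replication origins, read 968, 1115 and 680.2 and then 423, 516 and 382. Its 2.03-fold fall (log2 change -1.02 ± 0.23, adjusted p = 0.0184) was lost without PN9 replicate 1, PN9 replicate 2, PN14 replicate 1 or PN14 replicate 3 (adjusted p 0.0754, 0.0677, 0.0682 and 0.0557, in that order).

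Cytosolic ribosomal protein genes moved lower in sign but seldom past the threshold. Of 44 measured, 1 had a positive change, the median log2 change was -0.37, and 2 fell (Rpl27a and Rps19). Arrays left out gave 0, 1, 14, 0, 0 and 2 falls. Under the actin covariate 0 fell and the median was -0.07. Rps19 read 4341, 5445.5 and 3593 at PN9 and 2125, 2298 and 2861.5 at PN14, a 1.82-fold fall (log2 change -0.86 ± 0.21, adjusted p = 0.0308) lost without PN9 replicate 1, PN9 replicate 2, PN14 replicate 1 or PN14 replicate 2 (adjusted p 0.0902, 0.105, 0.112 and 0.097, in that order). The summed signal of the list was lowest on PN9 replicate 3 among the PN9 arrays, which is the array without which 14 fell.

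Several collagens fell and none rose. Of 27 measured 0 rose and 10 fell, 1 of 27 had a positive change, and the median log2 change was -0.63. Arrays left out gave 5, 7, 12, 5, 8 and 6 falls, and, with actin ratio as covariate, 4 fell. Col18a1, the basement membrane collagen that yields endostatin, read 1427, 1241 and 1224 at PN9 and 424, 363 and 477 at PN14, a 3.01-fold fall (log2 change -1.59 ± 0.18, adjusted p = 0.000555). Col8a2, a collagen of the corneal endothelial membrane, read 313, 655 and 452 and then 160.3, 142 and 154, a 2.80-fold fall (log2 change -1.48 ± 0.27, adjusted p = 0.0082). Of 36 other matrix genes 0 rose and 9 fell, with a median log2 change of -0.50, and arrays left out gave 4, 2, 10, 4, 3 and 4 and actin ratio as covariate 4. Thbs2, a matrix glycoprotein that limits vessel growth, read 1480.5, 1944.5 and 1457 and then 677, 731 and 562, a 2.43-fold fall (log2 change -1.28 ± 0.20, adjusted p = 0.00368). Emilin1, a glycoprotein of elastic fibres, read 108.5, 133.5 and 153 and then 55.1, 38.7 and 43.7, a 2.38-fold fall (log2 change -1.25 ± 0.22, adjusted p = 0.00714). Eln, the elastin of those fibres, read 1440.3, 1856 and 1368 and then 727, 826 and 578, a 2.17-fold fall (log2 change -1.11 ± 0.23, adjusted p = 0.0133) lost without PN9 replicate 2 (adjusted p = 0.0526). None of these 5 genes overlapped between the ages, as was so for 979 of the 985 called genes. Matrix genes are made chiefly by fibroblasts, whose marker list moved the same way: 0 of 25 rose, 6 fell (1, 2, 7, 2, 4 and 3 with arrays left out, and 0 with actin ratio as covariate), and its summed signal was 101726, 118117 and 86561 at PN9 and 72563, 85961 and 78732 at PN14. The fibroblast list itself holds collagens, and Col6a1 is counted as a fall in both lists, so their counts are not independent. All 25 markers were Present on all 6 arrays of this laser-captured epithelium, and their part in the falls was not tested.

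Other large falls came from genes of several kinds. Msln, the mesothelin surface protein, read 538, 695 and 335 at PN9 and 148, 163 and 111 at PN14, a 3.34-fold fall (log2 change -1.74 ± 0.31, adjusted p = 0.00742). Mdk, the growth factor midkine, read 636, 903 and 399.8 and then 194, 147 and 218, a 3.15-fold fall (log2 change -1.65 ± 0.34, adjusted p = 0.0128) lost without PN9 replicate 1, PN9 replicate 2 or PN14 replicate 2 (adjusted p 0.0535, 0.0533 and 0.0549, in that order). Krtap8-1, a hair shaft protein, had the largest fitted fall. It read 373, 33.6 and 45.2 and then 7.90, 2.40 and 1, was Present on no PN14 array and was at least 4.81-fold lower (log2 change -2.44 ± 0.58, adjusted p = 0.0254). Its call was lost without any of the PN14 arrays (adjusted p 0.0615 to 0.0763). The 18 measured hair follicle genes had summed signals of 1950.1, 455 and 994 and then 310.5, 321 and 1007, with PN9 replicate 1 the highest, and 2 of them fell (1, 3, 4, 0, 1 and 3 with arrays left out, 0 with actin ratio as covariate).

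Transcripts of muscle and retina also differed between the ages. Of 33 measured skeletal muscle genes 7 rose and 0 fell, and 32 of 33 had a positive change, with a median log2 change of 1.95. The summed signal of that list was 9874, 16350 and 27393 at PN9 and 49050, 49950 and 32846 at PN14. Within PN9, replicate 3 was the highest array, and without it 21 muscle genes rose, while the other omissions gave 3, 2, 2, 2 and 7, and actin ratio as covariate 1. Myh4, a fast myosin heavy chain, read 13, 8 and 142 and then 3518, 4338 and 1977.5, and its 65.4-fold rise (log2 change 6.03 ± 0.92, adjusted p = 0.00319) was the largest of all genes tested. Ckmt2, the mitochondrial creatine kinase of muscle, read 10.9, 8.50 and 74.1 and then 623, 709.9 and 464, a 15.5-fold rise (log2 change 3.96 ± 0.75, adjusted p = 0.00944). Of the 12 largest rises whose groups did not overlap, 7 were muscle genes (Myh4, Myh1, Myh3, Ckmt2, Pvalb, Mb and Smpx). Of 18 retina genes 3 rose (1, 1, 4, 0, 2 and 2 with arrays left out, 2 with actin ratio as covariate), and all 18 were positive: the summed signal was 279, 557 and 1045 and then 3652, 1602 and 2172. Gnat1, the transducin of rods, was Present on no PN9 array, at 11.3, 1.90 and 5.4, and read 399, 121 and 148 at PN14, at least 8.75-fold higher (log2 change 3.26 ± 0.63, adjusted p = 0.0101), and was lost without PN14 replicate 1 (adjusted p = 0.0519). Of 16 lens genes 0 passed by limma (1 at an unadjusted p under 0.05), and the groups' summed signals overlapped. Of 9 melanocyte genes and 11 Schwann cell genes 0 passed by limma, with 4 and 2 at an unadjusted p under 0.05. The part of muscle or retina in the other results was not tested.

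**Figure D4:**
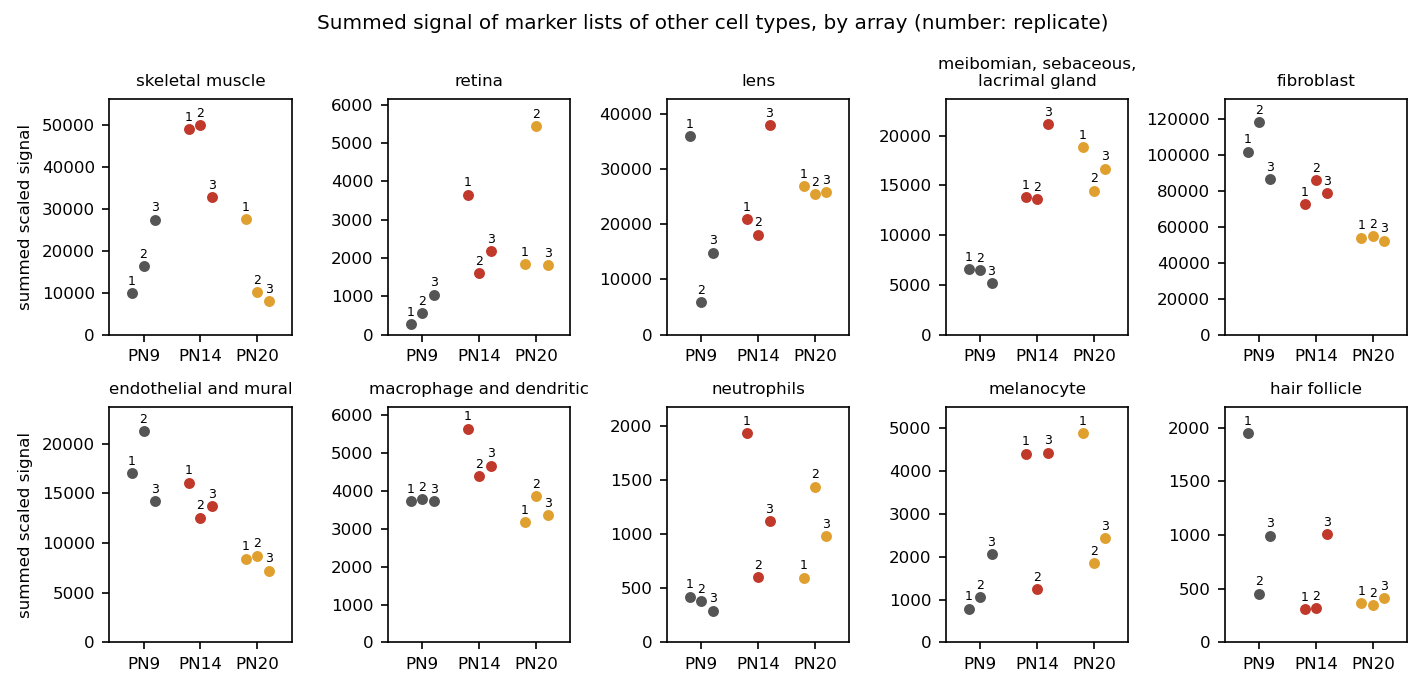
Summed scaled signal (vertical axis, from 0) of 10 lists of markers of other cell types on each wild-type array, with replicate numbers beside the points. The PN14 arrays lie above the PN9 arrays for muscle and retina, overlap them for lens and hair follicle and lie below them for fibroblasts.

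Genes whose first age step differed from the following one were few. The step from PN9 to PN14 was set against the step from PN14 to PN20 with limma, and 24 genes (0.169% of those tested) differed, 13 with a more positive and 11 with a more negative first step. All 13 rose and 10 of the 11 fell from PN9 to PN14. The PN14 arrays enter both steps with opposite signs, so an error in their mean moves the 2 steps apart, and the count with 1 array left out at a time was 7, 30, 38, 1, 4 and 6. Ccn2, a matricellular growth factor also known as Ctgf, read 364.5, 543 and 478 at PN9, 972, 1404.5 and 1137 at PN14, and 356, 237 and 233 at PN20. Its step of 1.32 ± 0.23 on the log2 scale was followed by one of -2.04, a difference of 3.35 ± 0.39 (adjusted p = 0.00884), so that PN14 stood above both other ages. Mmp3 read 745, 429.5 and 636 at PN20, and its steps were 2.42 and -0.74, a difference of 3.16 ± 0.45 (adjusted p = 0.0149). Klf9 read 2067, 1958 and 1576 at PN20, and its steps of 1.57 and -1.31 differed by 2.88 ± 0.48 (adjusted p = 0.0285). For S100a8, with 42.7, 41.3 and 75.8 at PN20, the steps of 1.16 and -1.16 differed by 2.32 ± 0.41 (adjusted p = 0.0369). Klf9 and S100a8 overlapped between PN9 and PN20, whereas Mmp3 remained above its PN9 arrays.

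Aqp5 and Ifit1bl1 rose in the first step and stayed near the new level. Aqp5, a water channel of glands and surface epithelia, read 182, 286.5 and 108.5 at PN9, 1859, 4006 and 2474 at PN14 and 2128, 2236 and 3003 at PN20, with steps of 3.77 and -0.12 (difference 3.89 ± 0.65, adjusted p = 0.0285). Ifit1bl1 read 5871, 8339 and 5223 at PN20, with steps of 4.02 and 0.23 (difference 3.79 ± 0.51, adjusted p = 0.014). For both, the PN14 and PN20 arrays overlapped and the PN9 arrays lay below them. On the other side, Mark2, a kinase of cell polarity, read 316, 361.5 and 341 at PN9, 99.3, 138 and 136 at PN14 and 301, 253 and 315.5 at PN20, with steps of -1.35 and 1.13 (difference -2.48 ± 0.33, adjusted p = 0.014). Golt1b, a Golgi transport protein, read 190.1, 136 and 201, then 67.4, 62.7 and 71.8, then 208, 206 and 178, with steps of -1.19 and 1.35. Its fall in the first step was lost in 3 of the 6 omissions, and the steps differed (difference -2.54 ± 0.43, adjusted p = 0.0285). Gsr, glutathione reductase, did not pass in the first step, with a log2 change of -0.16 ± 0.22 (adjusted p = 0.683). It read 131, 119.6 and 208 at PN9 and 644, 603 and 545 at PN20 against 117, 147 and 132 at PN14. Mark2 and Golt1b were thus lowest at PN14, and the PN20 arrays of Gsr stood above those of both other ages.

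**Figure D5:**
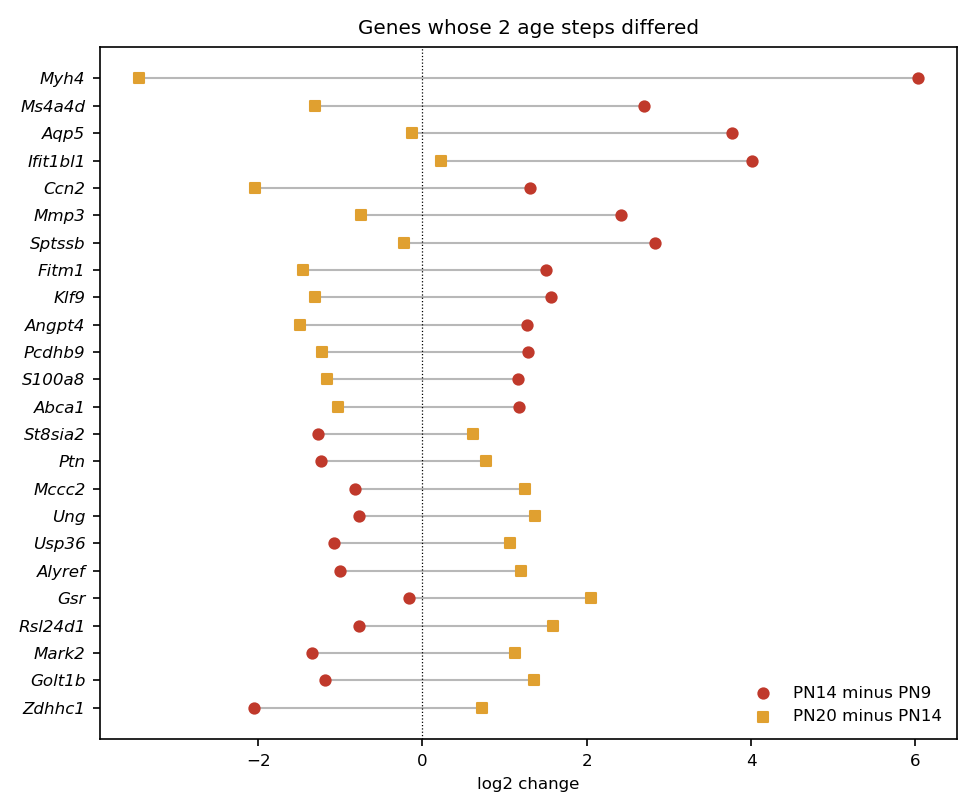
Log2 change (horizontal axis) from PN9 to PN14 (red circles) and from PN14 to PN20 (yellow squares) for the 24 genes whose 2 steps differed by limma. The first step is the more positive one for the upper 13 genes and the more negative one for the lower 11.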

How the data were processed

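Forniceal epithelium of 12 samples was measured on Affymetrix arrays, and the 6 wild-type samples of PN9 and PN14 are compared here. The deposited intensity of each probe set is the linear signal from GCOS 1.4, with the 2% trimmed mean of every array scaled to 150, per the labels. The deposited score counts increases less decreases over 9 pairwise comparisons of arrays, and the authors' rule combines it (beyond 5) with 3 Present calls in the higher group, groups that do not overlap and over 2-fold change, per the file headers.

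From these signals, arrays were scaled to a common median over 30600 probe sets that exceeded the 40th percentile of their array on at least 3 arrays. Values were taken as log2(signal + 16), and 1 probe set per gene, that of highest mean, was kept (6402 genes had several). limma 3.58.1 in R 4.3.3 was fitted over all 12 arrays with a mean for every group and a variance trend (residual degrees of freedom 8, prior 6.05), and p-values were Benjamini-Hochberg adjusted over 14163 genes. The script was tested on simulated data. Single values were tested with exact permutation in scipy 1.17.1 (Python 3.11.15), and figures were drawn with matplotlib 3.10.9. For lower bounds, a group with no Present call was raised on each array to that array's lowest detected signal (3.84 to 7.76, over probe sets with 3 Present calls at that age) where its own signal was lower, and no fold is given where neither age had a Present call. With 3 arrays a group, their number limits the precision.

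Genes named are the 12 of largest change in each direction with groups that do not overlap, up to 5 members of each list that passed by size of change (the 2 of smallest p where fewer than 2 passed), Klf4, and the 5 of largest step difference in each direction. Not every gene the rule yields is printed, and genes whose call held with each array left out were preferred. Lists and members were chosen with earlier results of these data known. Alternatives for the offset, scaling, filter, probe set, variance, arrays, replicate block and actin covariate are given in the closing section.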

Additional observations from a re-analysis of the deposited data

Results flagged for a closer look

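Differences between consecutive age steps are listed here because the step from PN9 to PN14 and the step from PN14 to PN20 differed by a direct test in limma, for 24 genes in all. Both steps share the PN14 arrays. The first step exceeded the second by 9.48 for Myh4, 4.00 for Ms4a4d, 3.89 for Aqp5, 3.79 for Ifit1bl1 and 3.35 for Ccn2 on the log2 scale. It lay below the second by a signed difference of -2.78 for Zdhhc1, -2.54 for Golt1b, -2.48 for Mark2, -2.36 for Rsl24d1 and -2.21 for Gsr. Ms4a4d, a membrane protein of the Ms4a family, read 43.0, 47.8 and 23 at PN9, 431, 362 and 222 at PN14 and 77.2, 270.0 and 84.9 at PN20. Myh4 read 459, 201 and 212.7 at PN20, between its means at the other ages. Rsl24d1, a ribosome assembly factor, read 261, 188 and 254 at PN9, 136, 109.8 and 144 at PN14 and 427, 454 and 381 at PN20, the highest of the 3 ages. Its fall in the first step (adjusted p = 0.0367) was kept only without PN9 replicate 2 among the 6 omissions, with adjusted p values of 0.0537 to 0.128 in the others. Zdhhc1 had no Present call at any age, so its difference is one between signals near background. Golt1b fell from PN9 to PN14, but that call was lost without PN9 replicate 1, and also without PN14 replicate 1 or 2 (adjusted p 0.0611, 0.0523 and 0.0521, in that order).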

How the results depend on the processing

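Of 90 genes given with values or flagged, 89 rose or fell, and these kept their direction in every alternative that measured them. The filter on 3 Present calls measured 87 of the 90 and left out Krtap8-1, Zdhhc1 and Cldn2. Of these, 52 passed with each of the 6 arrays left out, 53 were lost with the actin covariate, 40 with the ordinary test and 34 with all probe sets tested. The log2 change of Gsr, which did not pass, ran from -0.30 without PN9 replicate 2 to 0.062 without PN9 replicate 3, a change of sign. The cause was not tested for any of these changes except where fewer samples or more features enter by construction.

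Counts of genes called moved by over 1.5 times as follows, as all, higher and lower. Array weights gave 2955, 1678 and 1277, and the 9 wild-type arrays gave 1925, 1277 and 648. All probe sets gave 426, 306 and 120, the ordinary test 434, 242 and 192, and the actin covariate 130, 89 and 41. An adjusted p under 0.01 gave 189, 133 and 56, and a minimum of 2-fold gave 545, 402 and 143. Medians over all probe sets as the scale gave 565 in all and 142 lower, and lower counts were 740 with values as deposited and 689 after quantile normalization. Leaving out 1 of the 12 arrays gave 291 to 2069 in all, 194 to 1329 higher and 89 to 740 lower, with the highest without Klf4CN replicate 3. The count of step differences was 51 with values as deposited, 12 with the all-probe-set median, 165 with the 9 wild-type arrays and 1 to 156 with 1 array left out.

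The fit with the sample number as a replicate block called 913 genes (603 higher, 310 lower) and 12 step differences. Same-numbered samples of the 2 ages did not deviate together (r = -0.14, 0.10 and -0.03), so the numbers were not taken to pair samples.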
